A study of Sus scrofa with 5 samples.

Results

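The exosomal miRNAs of pig semen are described here, set against those of serum, plasma, urine and bile. Of the 411 mature miRNA names in the deposited tables, 174 had at least 10 counts in the semen library and were taken as its members. In all, 237 names reached 10 counts in at least 1 of the 5 libraries, so 63 names were found in another fluid but not in semen. All 5 fluids, semen included, were taken from 180-day-old pigs of the Rongchang breed, with no treatment named, and each gave 1 library. How many animals stand behind a library, whether fluids share animals, and whether sperm were removed from the semen is not stated. With 1 library a fluid there is no check of any difference by replicates and no p-value, and intervals cover counting error only.

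Exosomes are small vesicles that cells release by fusing internal multivesicular bodies with the plasma membrane. A miRNA is a short RNA that guides the Argonaute protein to messenger RNAs, mostly through its seed near the 5′ end, and lowers their translation or stability. In semen, vesicles are known to come from the epithelia of the epididymis, prostate and seminal vesicles, and in part from the testis. They are known to fuse with or bind to sperm during maturation and transport.

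The unit throughout is the share, the percent of a library's summed miRNA counts. The sums were 2284926 counts in semen, 1673239 in bile, 1153755 in plasma, 473168 in serum and 26522 in urine. No file lists a value between 1 and 9, so a listed 0 stands for 0 to 9 reads. In ratios of single names it was read as 10 counts, which makes the ratio of semen to that fluid a lower bound. That reading is worth 0.0377% in urine but 0.000438% in semen, and only 60 of the 174 members had a semen share above the urine value. Sums over a list, and their ratios, kept a listed 0 as 0, which can understate a sum, most of all in urine. For the members with a semen share under the urine value, a listed 0 in urine says nothing on which fluid held more.

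A few names made up most of the semen library. A single miRNA, miR-148a-3p, passed 50% of the counts, 11 names made up 90% and 58 made up 99%. For 90% plasma took 7 names, bile 14, urine 21 and serum 33, so plasma was more concentrated than semen by that measure. The same 50% took 2 names in plasma, 3 in urine and in bile and 6 in serum, and the 99% took 48 names in plasma, 62 in bile, 65 in urine and 88 in serum. By share, 12 semen members lay at or above 1%, 22 between 0.1% and 1%, 54 between 0.01% and 0.1% and 86 below 0.01%. Those last 86 summed to 0.252% of the library. The members just inside the limit were miR-95, miR-24-1-5p, miR-497 and miR-708-3p with 10 counts each, and every name outside it was listed at 0.

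miR-148a-3p, known for its abundance in liver and secretory epithelia, had 1206850 counts in semen. Its share was 52.8% in semen (exact 95% interval 52.75 to 52.88), 32.1% in bile, 18.1% in serum, 16.6% in urine and 1.41% in plasma. Semen was thus the highest of the 5, at 1.65 times bile (1.64 to 1.65), 2.92 times serum, 3.18 times urine and 37.4 times plasma. miR-21, widely expressed and raised in proliferating and inflamed tissue, followed with 8.69% in semen against 8.56% in bile, 4.54% in urine, 2.63% in serum and 0.426% in plasma. Its lead over bile, 1.01 times (1.01 to 1.02), turned to 0.93 times with edgeR's TMM library sizes. The 5 names of the miR-148 and miR-152 family summed to 53.4% of semen, 32.5% of bile, 19.0% of serum, 16.9% of urine and 1.78% of plasma, and the sum was highest in semen under every scaling tried. miR-148b-3p, next in that family, held 0.312% in semen but 0.678% in serum.

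The miR-10 pair, encoded inside the HOX gene clusters that pattern the body axis, was the next feature of semen. miR-10a-5p held 5.33% in semen, 4.63% in urine, 0.504% in serum, 0.414% in bile and 0.0218% in plasma. Semen was 10.6 times serum, 12.9 times bile and 245 times plasma, but 1.15 times urine (1.09 to 1.22). miR-10b held 4.98% in semen, 12.01% in urine, 0.569% in serum, 0.201% in bile and 0.0205% in plasma. The pair therefore separated semen and urine from serum, plasma and bile. The other arm of the miR-10a hairpin, miR-10a-3p, had 907 counts in semen, 16 in bile, 13 in serum and was listed at 0 in plasma and urine. Its semen share was 14.4 times serum (8.41 to 27.2) and 41.5 times bile (25.4 to 72.9). The fourth measured name of this group, miR-196b-5p, had 19 counts in semen, 16 in serum and 36 in urine. These are shares of 0.000832%, 0.00338% and 0.136%, so on shares it was lower in semen than in serum, unlike the pair. The 4 names summed to 10.3% of semen, 16.8% of urine, 1.08% of serum, 0.615% of bile and 0.0423% of plasma. Semen stood at 0.617 times urine on shares, but at 1.22 times with TMM.

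Next came miR-99a, which is processed from the same transcript as let-7c, with 4.95% in semen, 4.89% in serum, 4.09% in urine, 2.54% in bile and 0.593% in plasma. On shares semen and serum did not differ beyond counting error, at 1.01 times (0.998 to 1.03). That depended on the scaling: semen was 1.77 times serum with TMM, 1.88 times with DESeq2 size factors and 4.79 times on the authors' RPM. let-7c itself held 1.76% in semen, 2.29% in serum and 1.76% in bile. In RefSeq's pig assembly Sscrofa11.1, 165 of the 174 members matched a miRNA gene by name, and there the 2 genes lie within 10 kb of each other. Among the other leading members, miR-26a, a regulator of cell growth genes, held 3.29% in semen, 4.25% in urine, 1.84% in serum and 1.25% in bile. miR-151-3p held 0.685% in semen and between 0.555% and 0.773% in serum, urine and bile, so these 4 fluids lay close together. miR-191 held 0.503% in semen and 0.654% in serum, and miR-22-3p 0.347% in semen and 0.497% in plasma.

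**Figure D1:**
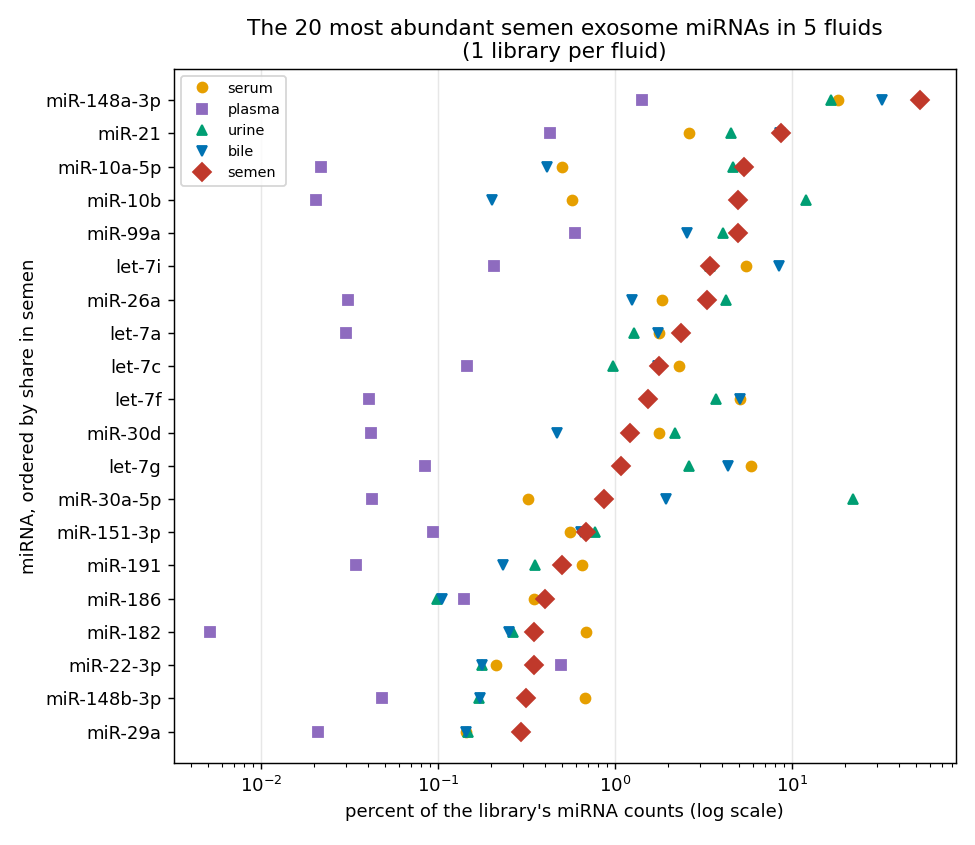
Shares of the 20 most abundant semen miRNAs (rows, highest at the top) in each of the 5 libraries, as percent of miRNA counts on a log axis, 1 point per library. Plasma lies far to the left of semen for most rows, and urine or bile lies near semen or beyond it for many, with miR-148a-3p at 52.8% in semen the highest point.

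The let-7 family, conserved regulators of differentiation that hold back cell growth genes, had 9 measured names, all of them present in semen. Together they took 10.4% of semen, 12.3% of urine, 20.8% of serum, 21.7% of bile and 0.517% of plasma. The members did not move alike. let-7a held 2.35% in semen and was highest there, at 1.33 times serum (1.30 to 1.36) and 1.33 times bile (1.32 to 1.35). let-7g held 1.08% in semen, 5.83% in serum and 4.33% in bile, and let-7f held 1.54% in semen, 5.08% in serum and 5.11% in bile. let-7i held 3.44% in semen against 8.41% in bile. Since let-7 names differ by few bases, reads of one member could have been counted for another. The family sum stayed below that of bile under TMM (0.440 times), DESeq2 size factors (0.580) and the authors' RPM (0.639), but against serum it turned to 2.37 times on the authors' RPM, and against urine to 1.67 times under TMM and 1.27 times under the DESeq2 factors.

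Against each fluid in turn, the balance of the members differed. Relative to serum, 36 of the 174 members were at least 2-fold higher in semen, where 17.1% of the 211 names present in either fluid were called. Among the 143 members listed in both, 22 were at least 2-fold higher in semen (15.4%), 82 at least 2-fold lower (57.3%) and 39 in between, with a median ratio of 0.368. Against plasma 90 members were at least 2-fold higher (background 41.5% of 217 names). Of the 118 listed in both, 56 were higher (47.5%) and 38 lower (32.2%), with a median ratio of 1.76. Against bile 62 were higher (background 29.8% of 208 names). Of the 145 listed in both, 47 were higher (32.4%) and 47 lower (32.4%), with a median ratio of 1.003. Against urine 8 were higher (background 4.42% of 181 names). Of the 77 listed in both, 5 were higher (6.49%) and 38 lower (49.4%), with a median ratio of 0.536. Every name listed in both fluids of a pair is a member, so for those counts the members are their own background. A name listed at 0 in semen cannot be called higher there, since semen had the lowest listing limit. The backgrounds of the counts higher in semen therefore hold the same names over a larger total and are no independent comparison.

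With a listed 0 read as 10 counts, the members at least 2-fold lower in semen numbered 91 against serum (background 60.7%), 38 against plasma (36.9%), 115 against urine (67.4%) and 47 against bile (37.5%). In urine 77 of the 115, and in serum 9 of the 91, rest on that reading alone and have no direction. The split also moved with the scaling. Of the members listed in both fluids and at least 2-fold apart, the part higher in semen went from 21.2% to 37.0% with TMM and 63.1% on the authors' RPM against serum. Against plasma it went from 59.6% to 30.9% with TMM and 31.6% with DESeq2 size factors. Against urine it went from 11.6% to 38.1% with TMM and 95.8% on the authors' RPM, and against bile 47 higher and 47 lower became 61 and 31, or 66.3% higher, when the most abundant miRNA of each library was left out of its total. The median log2 ratio shifted by as much as 6.43 against urine on the authors' RPM, and by -2.50 against plasma with TMM. A change of scaling shifts every ratio between listed values of a pair by the same factor, so with TMM each log2 ratio given here moves by 0.81 against serum, -2.50 against plasma, 0.99 against urine and -0.12 against bile, and a ratio can change direction where the shift is larger than its distance from equality. On that RPM scale the miRNAs were 21.2% of the semen library and 0.246% of the urine library.

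The 8 members at least 2-fold higher in semen than in urine are named here. miR-135 and miR-676-3p were listed at 0 in urine. miR-210 stood at 5.20 times urine, and miR-186, which lies within the ZRANB2 gene, at 4.12 times (2.81 to 6.31). miR-148a-3p stood at 3.18 times. Both arms of miR-423 were also above urine, the 5p arm at 2.32 times and the 3p arm at 2.02 times, from 16 and 10 urine counts. miR-148a-5p, chosen after its values were seen, had 3692 counts in semen, was listed at 0 in urine and was at least 4.29 times higher.

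Over all 4 other fluids, 12 of the 174 were highest (background 5.06% of 237 names), 3 by at least 2-fold (1.27%) and 2 by at least 4-fold (0.844%). The count depended on the scaling: 23 were highest with TMM or with DESeq2 size factors, 27 when totals left out the most abundant miRNA, and 81 on the authors' RPM. The 12 were miR-135, miR-210, miR-676-3p, miR-29a, miR-148a-3p, let-7a, miR-186, miR-10a-5p, miR-96-5p, miR-10a-3p, miR-21 and miR-99a. The leads of miR-96-5p and miR-10a-3p over urine, 1.07 and 1.05 times with urine at its limit, and that of miR-99a over serum had intervals reaching below 1. Under TMM miR-186 dropped below plasma, to 0.511 times, and under the DESeq2 factors to 0.528 times, and miR-21 fell below bile with TMM. Without the urine library, 43 members were highest in semen (background 18.1%), 17 by at least 2-fold (7.17%) and 8 by at least 4-fold (3.38%).

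miR-135 is known from work on spermatogonial stem cells. It had 6200 counts in semen (0.271%) and 370 in bile (0.0221%), and was listed at 0 in serum, plasma and urine. Semen was 12.3 times bile (11.0 to 13.7), at least 128 times serum, at least 313 times plasma and at least 7.197 times urine. The lower ends of these counting intervals were 69.8, 170.1 and 3.91. The plasma bound fell to 55.4 times under TMM and 57.2 times under the DESeq2 factors.

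miR-210, induced by the hypoxia factor HIF1A, had 5372 counts in semen (0.235%), 249 in bile, 199 in plasma, 32 in serum and 12 in urine. The semen share was 13.6 times plasma (11.8 to 15.8), 15.8 times bile (13.9 to 18.01), 34.8 times serum (24.6 to 50.9) and 5.20 times urine (2.97 to 10.1). It was the highest of the 5 under every scaling tried, although its lead over plasma shrank to 2.41 times under TMM and to 2.49 times under the DESeq2 factors.

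miR-676-3p, whose gene lies within EDA in RefSeq's assembly, had 3168 counts in semen (0.139%), 34 in bile and 24 in serum, and was listed at 0 in plasma and urine. Semen was 27.3 times serum (18.3 to 42.7), 68.2 times bile (48.7 to 98.7), at least 159.97 times plasma and at least 3.68 times urine. The plasma bound fell to 28.3 times under TMM. Without urine it had the largest ratio of any member. miR-29a, a regulator of collagen genes, had a smaller but even lead, at 2.03 times serum, 2.04 times bile, 1.99 times urine (1.45 to 2.80) and 13.9 times plasma. In RefSeq's assembly miR-29b, chosen after its values were seen, has a gene within 10 kb of miR-29a and another near miR-29c. Its counts do not tell these genes apart. miR-29b had 355 counts in semen and 108 in bile, and was listed at 0 in serum, plasma and urine.

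**Figure D2:**
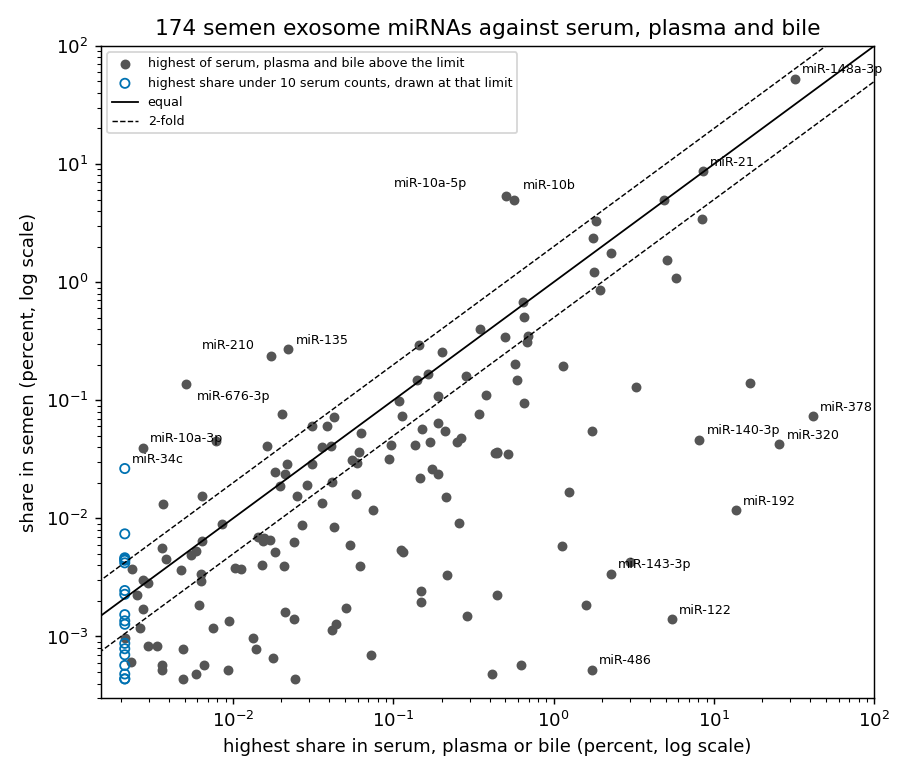
Each of the semen members by its share in semen (y axis) and the highest of its shares in serum, plasma and bile (x axis), both in percent on log axes; the solid line marks equal shares and the dashed lines 2-fold. miR-676-3p, miR-10a-3p, miR-210, miR-34c, miR-135, miR-10a-5p and miR-10b lie far above the line, and miR-122, miR-192, miR-486, miR-378 and miR-320 far below it. Open circles are drawn at 10 serum counts because their highest share lay under that limit.

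The list of male germ cell and testis miRNAs made up a small part of semen. Of this list 5 names were in the tables and 4 reached 10 counts in semen, where they summed to 0.304%. The sum was 0.0234% in bile and 0.00359% in serum, and every name was listed at 0 in plasma and urine. Most of the semen sum was miR-135, at 0.271%. It and miR-184 are not among the defining germ cell markers, of which miR-34c and miR-202-5p were listed in semen. The list was chosen with earlier results of these data known, so its high rank in semen is no independent result. miR-34c, abundant in spermatocytes and spermatids and present in sperm, had 604 counts, 0.0264% (0.0244 to 0.0286), while the other 4 fluids listed it at 0. That is at least 12.5 times serum (lower end 6.75), at least 30.5 times plasma and at least 44.2 times bile, while its share lay under the urine limit. miR-202-5p, a miRNA of the gonads, had 11 counts in semen and 0 elsewhere, and miR-184 had 128 in semen, 22 in bile and 17 in serum. The germ cell marker miR-34c was thus present in semen at a low share. Its relatives miR-34b and miR-449 were not analysed here.

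Besides miR-34c and miR-202-5p, 8 members were listed in semen alone, 10 in total out of the 237 names, with 3 of them above 100 counts. The other two of those 3 were miR-2483, with 169 counts and a gene within TENM1, and miR-362, with 101 counts; miR-2483 was chosen after its values were seen. The lowest of the 10 had 11 counts, and semen had the lowest listing limit of the 5 libraries. All 10 shares, the highest being 0.0264% for miR-34c, lay under the urine limit of 0.0377%. Several also lay under the serum limit of 0.00211%. Where a share lay under a fluid's limit, that fluid may have held as much or more.

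Markers of glandular epithelium gave a mixed picture. The 5 measured names summed to 0.528% in semen, 0.775% in serum, 0.458% in bile, 0.373% in urine and 0.0133% in plasma. The direction against serum turned to 1.19 times with TMM and 3.23 times on the authors' RPM. Of the defining markers, miR-200a, miR-200b, miR-200c, miR-141 and miR-375 were not analysed here. The others, miR-205 and miR-429, went opposite ways against serum. miR-205 had 90 counts in semen, 0.00394% against 0.0209% in serum and 0.00208% in plasma, and was listed at 0 in urine and bile. miR-429, a member of the miR-200 family that keeps epithelial cells from turning mesenchymal, had 1763 counts in semen (0.0772%), 338 in bile and 29 in urine, and was listed at 0 in both blood fluids. Semen was 3.82 times bile (3.40 to 4.30) and at least 36.5 times serum, and 0.706 times urine (0.490 to 1.06). The direction against urine turned under every other scaling, to 1.40 times with TMM, 1.07 with DESeq2 size factors, 1.17 with totals without the top miRNA and 60.8 on the authors' RPM. The 3 miRNAs of the miR-182, miR-183 and miR-96 cluster, which is known from sensory and epithelial cells, diverged. miR-96-5p was 19.1 times serum (10.3 to 40.0) from 10 serum counts, miR-183 was 0.888 times serum (0.783 to 1.01), and miR-182 was 0.508 times serum (0.488 to 0.530). Against bile they stood at 1.13, 0.375 and 1.40 times.

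The cluster of miR-532, miR-362 and miR-500, whose genes lie within 10 kb of each other in RefSeq's assembly, summed to 0.283% in semen, 0.396% in urine, 0.223% in serum, 0.0341% in bile and 0.0180% in plasma. miR-532-5p was 7.96 times bile (7.29 to 8.72), miR-500 was 11.1 times bile (7.94 to 16.1) and miR-362 at least 7.40 times bile. These 3 of its 4 names were more than 4-fold above bile, as were 40 of all 174 members (19.2% of the 208 names in either fluid). Its 2 names listed in both semen and urine, miR-532-5p and miR-500, were within 2-fold of urine. So were 34 of all 77 names listed in both. The other X-linked cluster listed, of miR-424, miR-450 and miR-542, went the opposite way: its 4 measured names were all listed at 0 in semen and summed to 0.332% in urine and 0.00944% in bile. No name of the imprinted DLK1-DIO3 locus was listed in semen either, while its 3 measured names summed to 0.155% in plasma. Of all 237 names, 63 were listed at 0 in semen.

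**Figure D3:**
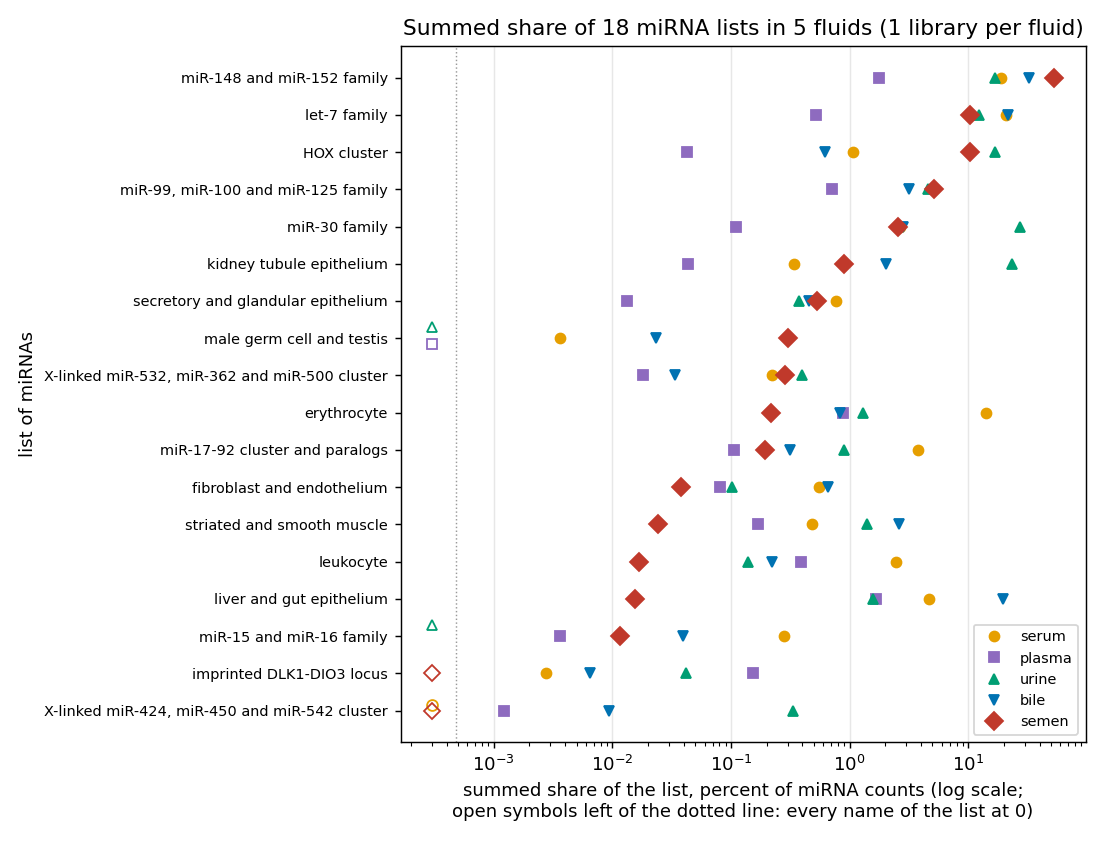
Summed share of each of 18 lists of miRNAs (rows, ordered by the semen sum) in the 5 libraries, as percent of miRNA counts on a log axis, 1 point per library. Semen is the rightmost point for the miR-148 and germ cell lists, and the leftmost for the lists of leukocytes, erythrocytes, liver, muscle and fibroblasts.

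Of the 18 lists, 2 had their highest sum in semen and 7 their lowest, counting the miR-424, miR-450 and miR-542 cluster, for which semen and serum tied at 0. Markers of blood cells were scarce in it. The leukocyte list summed to 0.0168% in semen, 2.46% in serum, 0.388% in plasma, 0.140% in urine and 0.221% in bile. Of its 9 measured names miR-142-5p, miR-142-3p, miR-150 and miR-155-5p were listed at 0 in semen, as were 63 of all 237 names. All 5 names present in semen were at least 2-fold lower than in serum and than in bile, where 57.3% and 32.4% of all names listed in both fluids were. The leading ones, miR-146b and miR-146a-5p, both regulators of inflammatory signalling, had 144 and 134 semen counts. miR-146a-5p was 191.5 times lower than in serum (161 to 229). miR-342, a lymphocyte miRNA, had 13 counts in semen against 2970 in serum, 1103 times lower (644 to 2074).

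Red cell markers were at 0.216% in semen, 14.2% in serum, 0.876% in plasma, 1.30% in urine and 0.831% in bile. miR-451, processed by Argonaute itself in red cells, was listed at 0 in semen, while its share was 8.48% in serum, 0.468% in urine, 0.414% in plasma and 0.412% in bile. Relative to serum it was at least 19377 times lower. miR-486 had 12 counts in semen and 8179 in serum, 3291 times lower (1883 to 6372). The semen sum of the list was carried by miR-92a, with 2932 counts, which is also made in many dividing cells, by miR-96-5p and by miR-185. The semen sums of both blood lists were the lowest of the 5 with shares, TMM and DESeq2 size factors, but on the authors' RPM urine was lower.

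Liver and gut markers were the scarcest relative to bile. The liver and gut list summed to 0.0154% in semen, 19.7% in bile, 4.65% in serum, 1.67% in plasma and 1.57% in urine, and it was lowest in semen under all 4 scalings. miR-122, the dominant miRNA of hepatocytes, had 32 counts in semen and 91481 in bile, 3904 times lower (2765 to 5708). miR-192, an intestinal and hepatic miRNA, had 269 counts against 229971, 1167 times lower (1036 to 1321). miR-194a, encoded beside miR-192, had 51 counts in semen and 7450 in bile. miR-215, a close relative of miR-192, was listed at 0 in semen and held 2.95% in serum.

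The muscle and fibroblast lists also had their lowest sums in semen on shares, though on the authors' RPM urine was lower. The muscle list summed to 0.0242% in semen and 2.62% in bile. Of its 10 measured names 7 were listed at 0 in semen, as were 63 of all 237 names. miR-206, of skeletal muscle, was among those 7 and held 0.426% in urine. miR-143-3p, of smooth muscle, had 78 counts in semen and was 664 times lower than in bile (532 to 841) and 59.4 times lower than in serum. miR-499-5p, encoded in a myosin gene, ran against the list with 442 counts and 2.23 times its serum share, though 0.669 times its bile share. miR-199a-3p, of fibroblasts, had 11 counts in semen and was 863 times lower than in bile (482 to 1730). miR-126-3p, of endothelium and encoded in EGFL7, led its list with 0.0366% in semen, 0.444% in serum, 0.0528% in urine, 0.0488% in bile and 0.0192% in plasma. The fibroblast and endothelium list summed to 0.0376% in semen, 0.660% in bile, 0.551% in serum, 0.102% in urine and 0.0810% in plasma, and its miR-126-5p had 12 semen counts. The lists of the miR-15 and miR-17-92 families, tied to cell cycle control, summed to 0.0116% and 0.193% in semen against 0.278% and 3.78% in serum, and all 3 members of the former and 7 of the 8 of the latter listed in both were at least 2-fold lower, as were 57.3% of all names listed in semen and serum. Against plasma both sums were higher in semen, at 3.19 and 1.82 times, but with TMM they turned to 0.564 and 0.321 times. They were led in semen by miR-16, with 208 counts, and by miR-92a. miR-195 had 18 counts, and miR-92b-3p had 720, at 5.02 times its bile share and 0.573 times its serum share.

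Some miRNAs abundant in plasma were also scarce in semen. The largest plasma names, miR-378, miR-320 and miR-423-5p, held 41.4%, 25.6% and 16.9% of plasma. In semen they held 0.0737%, 0.0423% and 0.140%. miR-296-3p had 97 counts in semen and was 710 times lower than in plasma (582 to 876). miR-378b-3p had 42 counts and was 872 times lower (645 to 1210). miR-9820-5p, with 1.10% of plasma, was listed at 0 in semen. The 63 names absent from semen took 12.4% of the serum library, 2.51% of plasma, 1.40% of urine and 0.763% of bile, so the semen members covered 87.6%, 97.5%, 98.6% and 99.2% of those libraries. miR-150 with 0.213% of serum completed the 5 largest absentees.

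Of the 67 members listed in all 5 fluids, 8 were highest in semen and 19 were below all 4 other fluids (28.4%). Among the 19, chosen after their values were seen, were miR-140-3p, at 0.0462% in semen against 8.13% in serum, miR-24-3p at 0.0553% against 1.73%, and miR-100 at 0.0349% against 0.516% in bile. miR-100 belongs to the family of miR-99a. Against serum miR-99b was at 4.59 times, miR-125a at 7.22 times and miR-125b at 1.995 times, while miR-100 was at 0.151 times. Against urine they lay closer together, with miR-99b at 0.536 times, miR-125a at 0.353, miR-125b at 0.705 and miR-100 at 0.280. The family as a whole held 5.16% in semen and 5.17% in serum, but its sum was 1.74 times serum with TMM and 4.72 times on the authors' RPM. Kidney markers summed to 0.904% in semen and 23.4% in urine. They were led in semen by miR-30a-5p, with 0.863% against 22.1% in urine and 1.94% in bile. This name, also of the miR-30 family, made up most of the semen and urine sums. miR-30a-3p followed with 0.0317% against 0.856% and 0.0944%. Urine also held more miR-204, at 0.471% against a semen share of 0.00683%. The last name of the list, miR-190b, had 52 semen counts and was listed at 0 in every other fluid. Its share lay under the urine limit, so it has no direction there. The miR-30 family, led by miR-30d with 1.21%, held 2.55% in semen, 2.67% in serum, 2.81% in bile, 27.6% in urine and 0.110% in plasma. Of its 8 names listed in semen and urine, 7 were at least 2-fold lower in semen, where 49.4% of all names listed in both were; on the authors' RPM the family sum was instead 7.96 times urine.

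Arm use, the choice between the 5p and 3p strands of a hairpin, is a ratio within a library and does not depend on its scaling. It was compared for 29 hairpins with both arms in the tables and 100 counts in semen and in another fluid. The 5p share in semen lay within the range of the other fluids in 13, above it in 8 and below it in 8. Where an arm listed at 0 was allowed any value from 0 to 9 reads, 17 lay within, 6 above and 6 below; miR-92b, miR-221, miR-532 and miR-10a lost their place outside the range. The 5 hairpins farthest outside the range are given next. For miR-374a and miR-345 only 1 other fluid, bile, had 100 counts, so the range was that single value.

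For miR-423 the 5p arm made up 64.7% of both arms in semen (63.4 to 66.1), against 81.1% in serum (80.2 to 81.9), 90.1% in bile (88.6 to 91.4) and 99.04% in plasma. Urine had 61.5% (40.6 to 79.8) from 26 counts. For miR-28 it was 20.7% in semen (19.3 to 22.2), 5.41% in serum, 4.14% in plasma and 3.35% in bile. For miR-140 it was 10.1% in semen (8.47 to 12.01), 0.226% in serum and 1.26% in bile, and with 9 reads for the unlisted arm at most 0.522% in plasma. For miR-345 it was 18.3% in semen (15.0 to 21.8) and 7.27% in bile (3.81 to 12.4). Serum and plasma had 93 and 23 counts for miR-345, with the 5p arm listed at 0 in both. For miR-374a the 5p arm made up 47.4% in semen (45.2 to 49.7) and 84.0% in bile (81.3 to 86.5). Serum gave 47.4% (31.0 to 64.2) from 38 counts and urine 57.6% (39.2 to 74.5) from 33. In miR-28, miR-140 and miR-345 the less used arm thus took a larger part in semen than in each fluid with 100 counts, and miR-423 had a larger 3p part. The leading hairpin, miR-148a, stood inside the range: its 5p arm made up 0.305% in semen (0.295 to 0.315), 0.243% in serum, 0.0270% in bile and 16.8% in plasma.

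**Figure D4:**
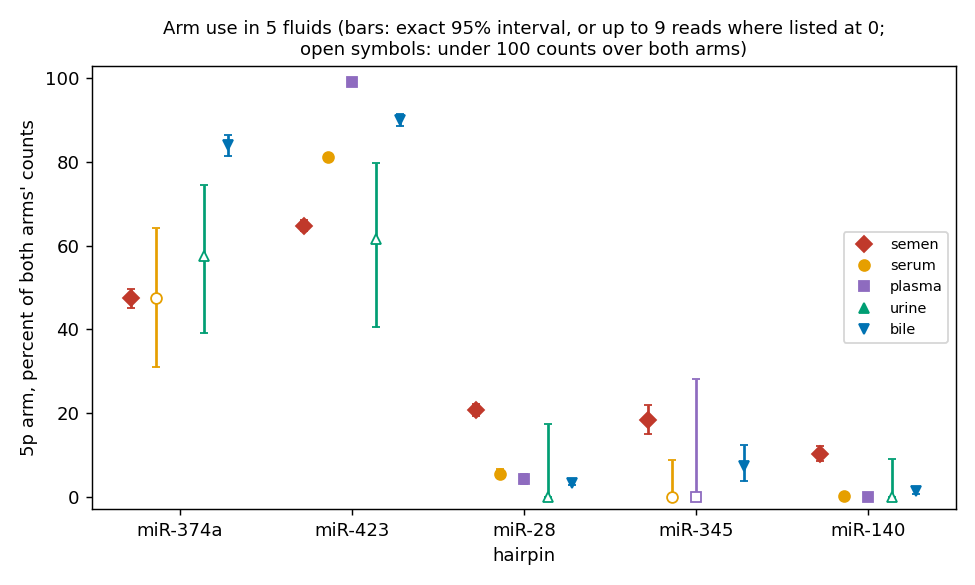
Percent of counts from the 5p arm (y axis) for the 5 hairpins farthest outside the range of the other fluids, in each library; bars are exact 95% intervals or, where the 5p arm was listed at 0, reach to 9 reads. Semen is above serum, plasma and bile for miR-28 and miR-140, and below them for miR-423.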

How the data were processed

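Small RNA from exosomes was sequenced in 1 library for each of the 5 fluids. An exosome isolation reagent, Trizol extraction and gel size selection were used, per the labels' protocols. Per the submitters' processing notes, bcl2fastq 2.17 and the genome build Sscrofa10.2 were used. The aligner, the miRNA annotation and the counting of reads that match several names are not stated there, so closely related names are uncertain. The authors deposited a read count per name and an RPM value, scaled to a larger library total recovered as counts over RPM.

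From the counts, shares, exact Clopper-Pearson intervals and exact conditional binomial intervals of ratios (95%) were computed with Python 3.11.15 and scipy 1.17.1, and checked on simulated data. A listed 0 was read as 10 counts in ratios of single names and kept as 0 in list sums. Counts over members listed in both fluids, and unlisted arms at 0 to 9 reads, were added after seeing the data. Alternatives were edgeR 4.0.16 TMM, DESeq2 1.42.0 size factors, RPM, other totals, filters, floors and folds, and a library left out. Named miRNAs follow a rule: the 20 highest shares, 12 highest and 8 lowest ratios, 5 largest names absent from semen, 2 per list and 5 hairpins; any other miRNA named was chosen after its values were seen. The members and lists were chosen with earlier results of these data known. The planned grouping by seed and the sequence features were not run, since sequences were not used here. RefSeq Sscrofa11.1 served for names and neighbouring genes only. No sample was left out.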

Additional observations from a re-analysis of the deposited data

How the results depend on the processing

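Of 137 counts recomputed under the alternatives, 72 stayed within 1.5 times the reported count and 65 did not. The cause was not tested, except where the construction shows it. With TMM 42 (plasma), 24 (urine) were higher in semen, 91 (plasma) were lower in semen, 23 were highest in semen, 5 led by 2-fold and 6 lists had their highest sum in semen. With DESeq2 size factors 57 (serum), 43 (plasma), 18 (urine) were higher in semen, 91 (plasma) were lower in semen, 23 were highest in semen and 5 lists had their highest sum in semen. With totals without the most abundant miRNA 18 (urine) were higher in semen, 31 (bile) were lower in semen, 27 were highest in semen, 6 led by 2-fold and 28 were lowest in semen. On the authors' RPM 87 (serum), 144 (urine) were higher in semen, 38 (serum), 3 (urine) were lower in semen, 81 were highest in semen, 48 led by 2-fold, 21 led by 4-fold, 9 were lowest in semen, 7 lists had their highest sum in semen and 3 lists had their lowest sum there. At 100 or more semen counts, which tests fewer names, 42 (serum), 17 (plasma), 52 (urine), 25 (bile) were lower in semen and 15 were lowest in semen. With no filter, which adds the names absent from semen, 154 (serum), 80 (plasma), 178 (urine), 78 (bile) were lower in semen and 106 were lowest in semen. With a listed 0 read as 3 counts 22 (urine) were higher in semen and 5 led by 2-fold. With the urine limit applied to all libraries 11 (serum), 32 (plasma), 17 (bile) were higher in semen, 39 (serum), 20 (plasma), 30 (urine), 22 (bile) were lower in semen and 12 were lowest in semen. At 4-fold 18 (serum), 4 (urine), 40 (bile) were higher in semen and 58 (serum), 22 (plasma), 22 (bile) were lower in semen. Relative to each pair's median ratio 66 (serum), 73 (urine) were higher in semen and 54 (serum), 72 (plasma), 60 (urine) were lower in semen. Without urine 43 were highest in semen, 17 led by 2-fold and 8 led by 4-fold. Over members listed in both fluids 22 (serum), 56 (plasma), 5 (urine) were higher in semen and 38 (urine) were lower in semen. The reported count lowest in semen, with a listed 0 read as 10 counts, was 43 of the 174 members, beside 106 of all 237 names. Only 19 of the 43 were listed in all 5 fluids. The others rest on that reading in at least 1 fluid and have no direction there. Leaving out plasma moved none of the counts of members highest or lowest in semen past 1.5 times. Summing arms and near-identical names by seed was not run. No paired analysis was possible because each fluid has 1 library. Depth limits urine most: with 26522 counts, its listing limit was 0.0377%, above the semen share of most members.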
